A study of Mus musculus with 67 samples.

Results

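The comparison described here is between cultured and in vivo visceral endoderm (VE) of wild-type mouse embryos at embryonic day 5.5 (E5.5). The libraries were taken by their labels: 3 of cultured VE, 2 of in vivo VE labelled VE_Epi and 3 of in vivo VE labelled VE_ExE, which makes 8 of the 67 libraries of the series. Cultured embryos had been grown in 3D in Matrigel by a published method, and in vivo embryos came from natural matings and were dissected out of the decidua. Both kinds of embryo were taken apart with trypsin-EDTA, and 10 to 100 cells a sample went into Smart-seq2 cDNA amplified for 17 cycles. The study's design names a reporter line with EGFP under the Pdgfra promoter that helped to isolate lineages; which of the 8 samples were collected with it was not analysed here. The labels do not expand the names VE_Epi and VE_ExE or give the length of the culture. Separate biological replicates are stated for each group. The labels give no batch, so culture, collection of the embryos and library batch cannot be told apart in any cultured against in vivo difference.

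The VE is the epithelium that covers the epiblast and the extra-embryonic ectoderm of the egg cylinder. It takes up maternal proteins and nutrients at an apical brush border, digests them in lysosomes, and secretes carrier proteins of the kind that yolk sac and liver later make. A group of its cells at the distal tip, later anterior, secretes inhibitors of NODAL and WNT signalling and so helps to set the head-to-tail axis. The VE also receives signals from its neighbours, with BMP from the extra-embryonic ectoderm acting on the part that covers it.

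The label was checked with Ttr and Afp, which encode the carrier proteins transthyretin and alpha-fetoprotein. Values are length-scaled transcript shares (TPM), differences are cultured VE minus the mean of VE_Epi and VE_ExE on the log2(TPM + 1) scale with their standard error, and a gene is called when limma's adjusted p is under 0.05 and the difference is at least 1. Ttr had 588, 623 and 585 TPM in cultured VE, against 714 and 923 TPM in VE_Epi and 792, 701 and 755 TPM in VE_ExE (log2 difference -0.38 ± 0.19, adjusted p = 0.11). All 3 cultured libraries were below all 5 in vivo libraries, by too little for a call. Afp had 92.6, 102 and 115 TPM in cultured VE, against 97.8 and 77.4 TPM in VE_Epi and 83.9, 16.6 and 2.15 TPM in VE_ExE (log2 difference 1.43 ± 0.51, adjusted p = 0.02). The cultured and VE_Epi libraries overlapped, and the 3 VE_ExE libraries spread widely. The Afp call was lost without cultured replicate 2 (log2 1.44, adjusted p = 0.050), without cultured replicate 3 (1.35, 0.068), without VE_Epi replicate 2 (1.35, 0.056) and without VE_ExE replicate 3 (0.83, 0.11), and under both other scalings. It was also lost with a pseudocount of 0.1 TPM, in a fit of only the 3 groups compared and with the regions averaged before the log. With VE_ExE replicate 1 alone for its group it was 0.26 (adjusted p = 0.74). Both markers were present in all 8 libraries. Pdgfra, the gene whose promoter drives the reporter, had 11.6, 11.7 and 11.5 TPM in cultured VE, against 6.87 and 5.9 TPM in VE_Epi and 70.3, 83.7 and 51.1 TPM in VE_ExE. Its cultured values lay above VE_Epi and below VE_ExE.

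TPM divides by transcript length and by the library's total and holds no read depth. The cultured libraries detected more genes: 10992 to 11101 genes had at least 1 TPM in cultured VE, against 10231 to 10241 in VE_Epi and 8423 to 8553 in VE_ExE. Actb took 2.81% to 3.23% of all TPM in cultured VE, against 9.89% to 10.4% in VE_Epi and 9.66% to 15.4% in VE_ExE. The 10 highest genes of a library took 10.7% to 11% in cultured VE, against 18.7% to 19% in VE_Epi and 17.7% to 23.6% in VE_ExE. Rn45s, a ribosomal RNA precursor, ran the other way, with 0.35% to 0.368% in cultured VE, against 0.17% to 0.194% in VE_Epi and 0.136% to 0.163% in VE_ExE. For each of these 4 measures the 3 cultured libraries lay outside the range of the 5 in vivo libraries (exact permutation test, 2-sided, p = 0.0357, the smallest that 3 against 5 libraries can give). Pearson correlations of log2(TPM + 1) were 0.978 to 0.979 among cultured libraries, 0.948 between the VE_Epi libraries and 0.858 to 0.883 among the VE_ExE libraries. VE_ExE replicate 1 stood apart from replicates 2 and 3 in several genes: Insig1, for example, had 1305, 5962 and 5543 TPM in replicates 1, 2 and 3. In bulk samples fewer cells of a type and less RNA per cell cannot be told apart.

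**Figure D1:**
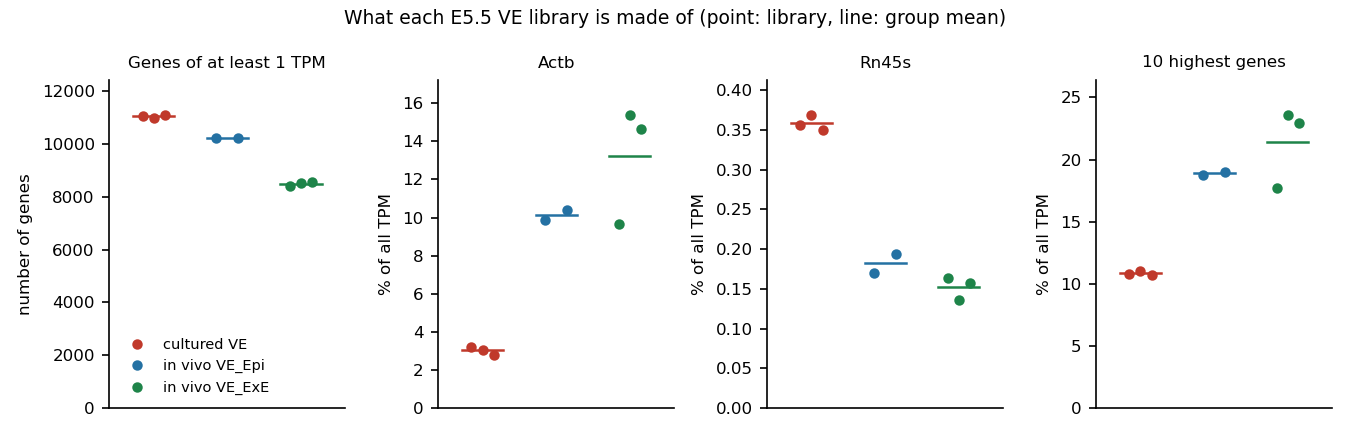
Number of genes of at least 1 TPM and the percent of all TPM taken by Actb, by Rn45s and by the 10 highest genes, one point per library and a line at the group mean, for cultured VE (red), VE_Epi (blue) and VE_ExE (green). In each panel the 3 cultured libraries lie outside the range of the 5 in vivo libraries, and Actb takes 2.81% to 3.23% of the TPM in cultured VE, against 9.66% to 15.4% in vivo.

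Markers of the neighbouring tissues were read by list. The 13 epiblast markers summed to 696 to 761 TPM in cultured VE, 627 to 695 TPM in VE_Epi and 196 to 258 TPM in VE_ExE. In cultured VE the largest of them were Dnmt3b, Utf1 and Fgf5, and Pou5f1, which defines the epiblast, had at most 1.86 TPM in cultured VE and at most 0.215 TPM in vivo. The 13 extra-embryonic ectoderm markers summed to 90.1 to 107 TPM in cultured VE, 154 to 169.9 TPM in VE_Epi and 371 to 577 TPM in VE_ExE. The 18 parietal endoderm genes summed to 894 to 989 TPM in cultured VE, 1414 to 1665 TPM in VE_Epi and 2479.7 to 4948 TPM in VE_ExE, and their highest member, the matrix protein gene Sparc, fell in cultured VE (log2 difference -2.10 ± 0.15, adjusted p = 7.2e-17). The 15 decidua markers summed to 9.62 to 13.5 TPM in cultured VE, 16 to 18.6 TPM in VE_Epi and 0 to 2.81 TPM in VE_ExE, and 8 of them were at 0 in all 8 libraries. The 8 blood markers summed to 0.166 to 0.646 TPM in cultured VE, 1.26 to 15.8 TPM in VE_Epi and 0 to 8.04 TPM in VE_ExE. Of the tested members, 5 of 13 epiblast markers, 1 of 13 extra-embryonic ectoderm markers and 2 of 18 parietal endoderm genes rose, and 0, 2 and 2 fell. With VE_ExE replicate 1 alone for its group, 2 extra-embryonic ectoderm markers rose and 5 fell. After quantile normalization 1 parietal endoderm gene rose and 4 fell. Over all genes tested, 22.9% rose and 5.02% fell. The part of other cell types in the results was not tested.

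In all, 15567 genes were tested on log2(TPM + 1), with equal weight for the 2 in vivo regions; on that scale low genes show less than their true fold. In cultured VE 3559 genes (22.9%) were higher and 781 (5.02%) were lower, and 2234 of the higher and 518 of the lower genes had 3 cultured libraries outside the range of all 5 in vivo libraries; such libraries were seen above the range in 20.2% and below it in 5.81% of all genes tested. The median difference over all genes was 0.33, so changes are read against that shift. After quantile normalization, which gives every library the same distribution, the median was 0.01 and 1810 genes (11.6%) were higher and 1465 (9.41%) lower. After median-ratio scaling the median was 0.08, with 2075 (13.3%) higher and 1277 (8.2%) lower, so the share of called genes that were higher was 82.0% as deposited, 55.3% and 61.9%. Without Actb and Rn45s it was 77.1%, with 3125 (20.1%) higher and 930 (5.97%) lower. A fit of only the 3 groups compared called 1879 genes, 1392 higher and 487 lower. Of the 3559 higher genes, 627 were at 0 in all 3 VE_ExE libraries and 225 in all 5 in vivo libraries. When the 2 regions' TPM were averaged before the log, 2694 of the 3559 still reached 1 log2 unit, as did all 781 of the lower genes.

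Against VE_Epi alone, 1995 genes (12.8%) were higher and 830 (5.33%) lower in cultured VE, and against VE_ExE alone 4356 (28%) were higher and 915 (5.88%) lower. After quantile normalization these counts were 1159 and 1247 against VE_Epi, and 2417 and 1828 against VE_ExE. These contrasts share the 3 cultured libraries, so their values stand side by side only. Over all genes, against both regions, 22.9% rose and 5.02% fell. These shares were 11.6% and 9.41% after quantile normalization, and 13.3% and 8.2% after median-ratio scaling. Gene lists, to be read beside these shares, follow with the number of tested members that rose or fell. In brackets come the same 2 counts after quantile normalization, after median-ratio scaling and in the fit of only the 3 groups. Counts without Actb and Rn45s, and with VE_ExE replicate 1 alone for its group, stand in the same brackets where either count moved by over 1.5 times or to or from 0.

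**Figure D2:**
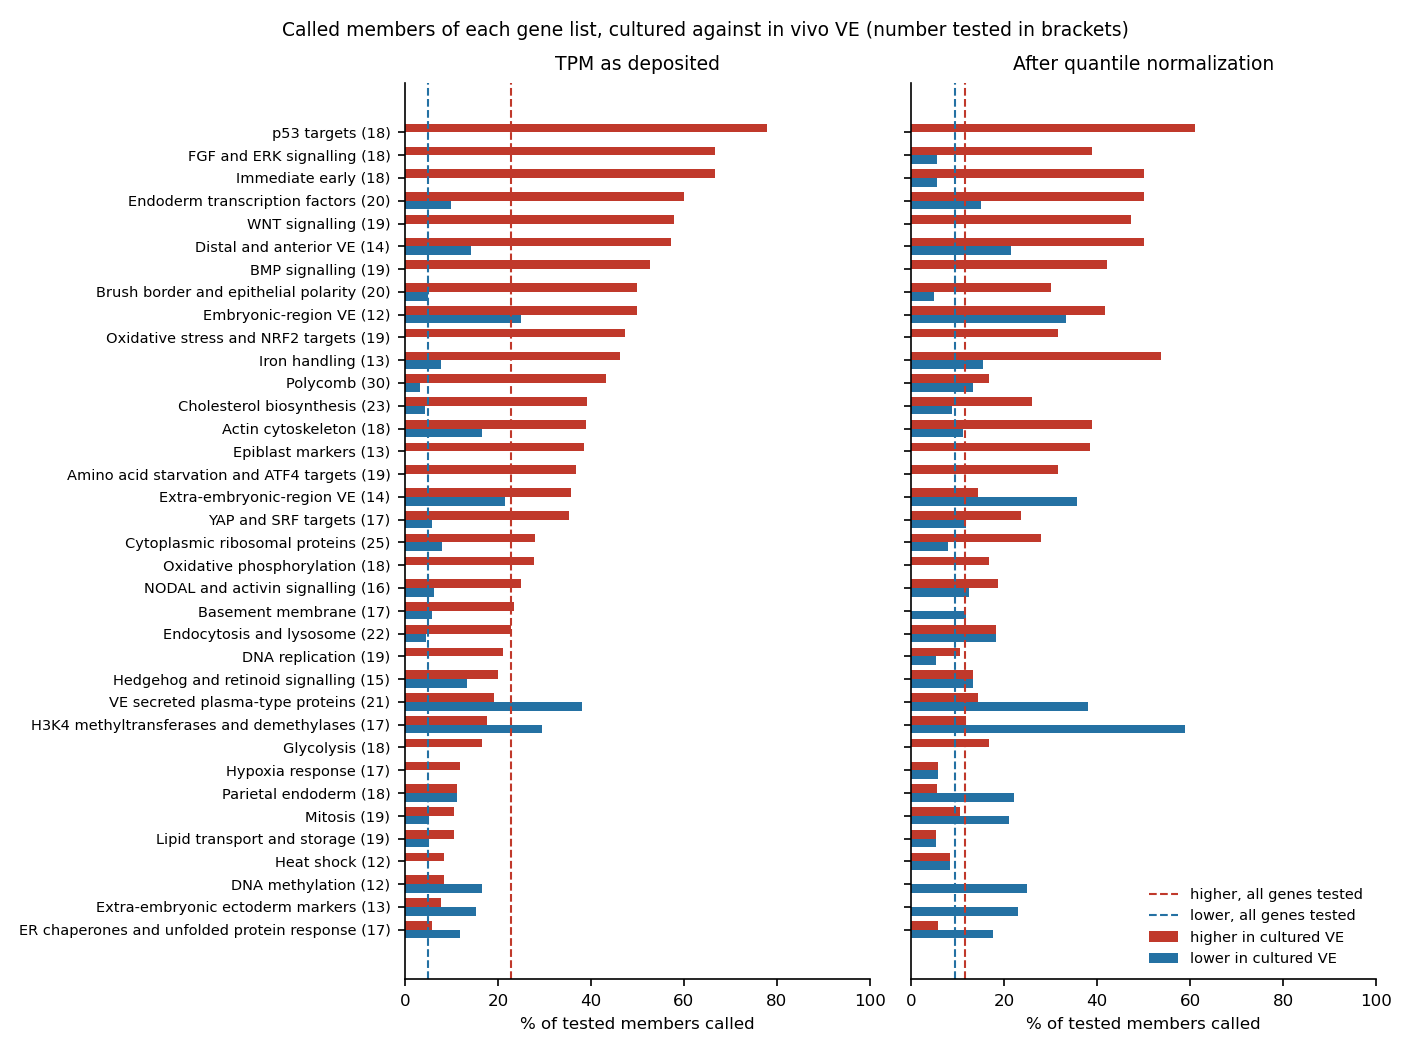
Percent of the tested members of each gene list of 12 or more members called higher (red) or lower (blue) in cultured VE than in in vivo VE, with dashed lines at the percent called over all genes tested; the number tested stands in brackets. As deposited (left) the p53 target list has the largest share called higher, 14 of 18, and the VE secreted protein list has 8 of 21 lower; after quantile normalization (right) these counts are 11 of 18 and 8 of 21.

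The secreted carrier proteins split. On their list, 4 of 21 tested members rose and 8 fell (quantile 3 and 8, median-ratio 3 and 8, 3-group fit 2 and 6), and the list's median difference was -0.13. Apoa2 (chr1:171225054-171226379 on GRCm38, as are the gene positions below), an apolipoprotein of high-density lipoprotein, had 0.654, 1.44 and 1.2 TPM in cultured VE, against 237 and 248 TPM in VE_Epi and 390.3, 269 and 408 TPM in VE_ExE (log2 difference -7.14 ± 0.33, adjusted p = 9.0e-24). The cultured libraries were nearly empty of it and all 5 in vivo libraries were high. Apoc2, the activator of lipoprotein lipase, had 429, 383 and 368 TPM in cultured VE, against 2008 and 2129.8 TPM in VE_Epi and 5348, 4160.3 and 4309 TPM in VE_ExE (log2 difference -2.97 ± 0.25, adjusted p = 8.1e-14). Fgb, a fibrinogen chain, had 67.1, 85.4 and 66.7 TPM in cultured VE, against 483 and 440.2 TPM in VE_Epi and 245, 382 and 395 TPM in VE_ExE (log2 difference -2.42 ± 0.29, adjusted p = 1.1e-09). Both genes were below every in vivo library in all 3 cultured libraries. The apolipoprotein genes Apoa4 (-1.41 ± 0.39) and Apoc1 (-1.18 ± 0.16) and the fibrinogen gene Fgg (-2.16 ± 0.32) fell as well. Rbp4, the plasma carrier of retinol, had 114, 126 and 89 TPM in cultured VE, against 834 and 717 TPM in VE_Epi and 182, 42.5 and 110.4 TPM in VE_ExE (log2 difference -1.31 ± 0.40, adjusted p = 0.0063). Its cultured libraries lay far below VE_Epi and overlapped VE_ExE. Trf, which encodes the iron carrier transferrin, had 27.4, 21.1 and 38.7 TPM in cultured VE, against 511 and 472 TPM in VE_Epi and 195, 22.9 and 3.27 TPM in VE_ExE (log2 difference -1.99 ± 0.69, adjusted p = 0.018). The VE_ExE replicates lay from above to below the cultured ones.

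Other members of the secreted list went the other way or were not called. Spink1, a secreted trypsin inhibitor, had 5752, 5919 and 4858 TPM in cultured VE, against 1041 and 1643 TPM in VE_Epi and 1409.7, 1007 and 985 TPM in VE_ExE (log2 difference 2.18 ± 0.41, adjusted p = 2.7e-05). Its 3 cultured libraries were above all 5 in vivo libraries. Amn, a membrane protein that anchors the uptake receptor cubilin and also stands on the endocytosis list, averaged 1396 ± 252 TPM in cultured VE, 373 ± 28.9 TPM in VE_Epi and 376 ± 174 TPM in VE_ExE (SD, n = 3, 2 and 3) and rose (log2 difference 1.93 ± 0.40, adjusted p = 8.8e-05). Apoe, the most abundant of the carriers, averaged 12399 ± 1574 TPM in cultured VE, 5765 ± 268 TPM in VE_Epi and 7526 ± 1138 TPM in VE_ExE, and Apom 1484 ± 19.1 TPM in cultured VE, 1728 ± 329 TPM in VE_Epi and 2083 ± 117 TPM in VE_ExE; neither was called (log2 difference 0.91 ± 0.15, adjusted p = 1.8e-06 for Apoe and -0.35 for Apom). Rbp4 and Trf lost their calls in the 3-group fit. Trf lost its call with the 8 libraries alone and with the 5 in vivo libraries weighted equally. Apoa4, Rbp4 and Trf lost their calls with a pseudocount of 0.1 TPM. The Trf call was also lost without cultured replicate 1 (log2 -1.97, adjusted p = 0.051), cultured replicate 2 (-1.78, 0.078) or VE_ExE replicate 1 (-1.27, 0.093).

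**Figure D3:**
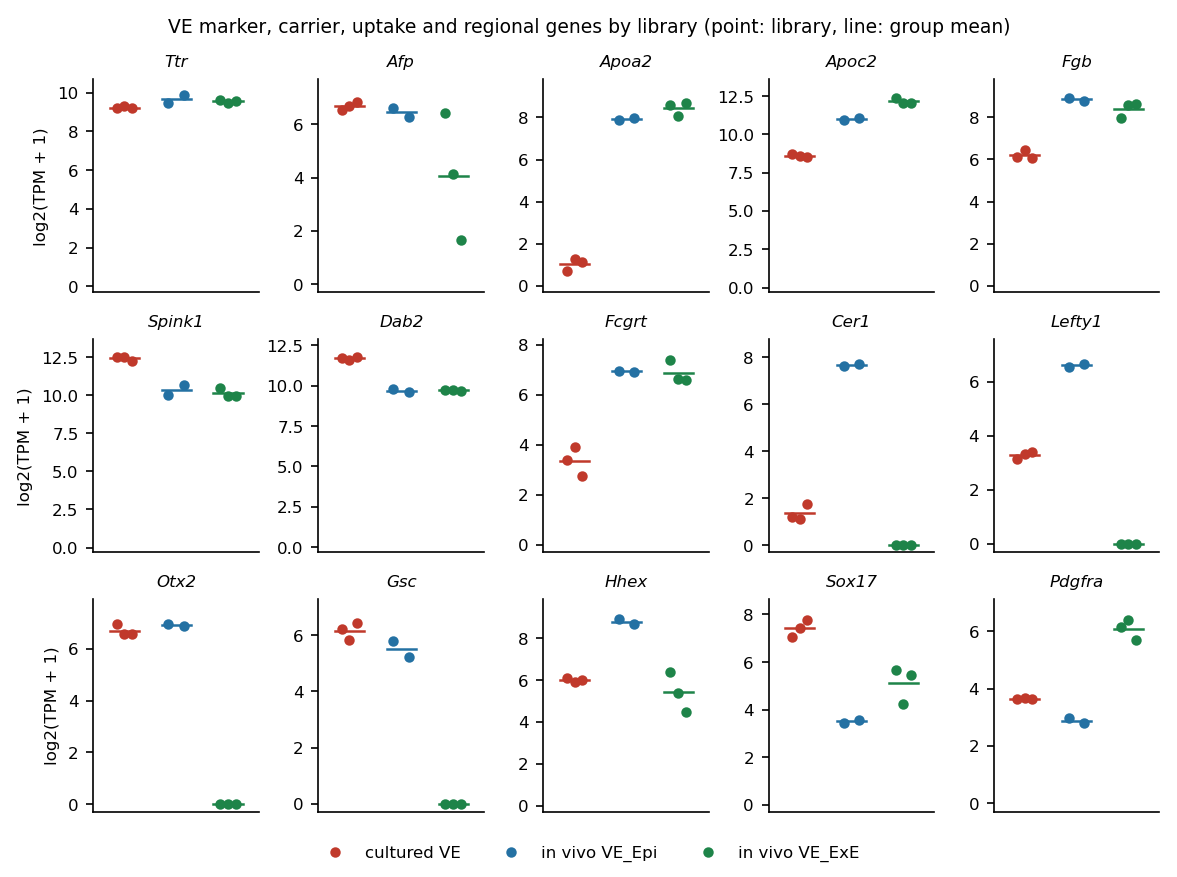
log2(TPM + 1) of 15 VE genes, one point per library and a line at the group mean, for cultured VE (red), VE_Epi (blue) and VE_ExE (green). The 3 cultured libraries lie below all 5 in vivo libraries for Apoa2, Apoc2, Fgb and Fcgrt and above all 5 for Spink1, Dab2, Gsc and Sox17; Cer1, Lefty1, Otx2 and Gsc are at 0 in VE_ExE.

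Among endocytosis and lysosome genes, 5 of 22 tested members rose and 1 fell (quantile 4 and 4, median-ratio 2 and 4, 3-group fit 4 and 1). Beside them stand 22.9% and 5.02% of all genes, and 11.6% and 9.41% after quantile normalization. Dab2, the adaptor that carries cubilin and megalin into coated pits, had 3314, 3113 and 3553 TPM in cultured VE, against 879.9 and 768 TPM in VE_Epi and 833, 849 and 825 TPM in VE_ExE (log2 difference 2.00 ± 0.26, adjusted p = 1.7e-08). All 3 cultured libraries were above all 5 in vivo. The lysosomal genes Lamp1 (1.26 ± 0.15) and Ctsd (1.14 ± 0.21) rose too, while the abundant protease genes Lgmn (0.34) and Ctsz (-0.21) were not called. Fcgrt, the Fc receptor that rescues immunoglobulin and albumin from the lysosome, had 9.31, 14 and 5.79 TPM in cultured VE, against 123 and 119 TPM in VE_Epi and 164, 97.6 and 96 TPM in VE_ExE (log2 difference -3.55 ± 0.56, adjusted p = 8.7e-07). Every cultured library was lower than every in vivo one. Of the brush border and polarity genes, 10 of 20 tested members rose and 1 fell (quantile 6 and 1, median-ratio 5 and 1, 3-group fit 4 and 1, VE_ExE replicate 1 alone 7 and 2). Espn, an actin-bundling protein of microvilli, had 60.5, 53.8 and 49 TPM in cultured VE, against 6.43 and 5.21 TPM in VE_Epi and 0.0498, 0.703 and 4.4 TPM in VE_ExE (log2 difference 3.86 ± 0.46, adjusted p = 1.2e-09). Pdzk1, a scaffold that holds transporters at the apical membrane, had 32.3, 25.8 and 32 TPM in cultured VE, against 256 and 158 TPM in VE_Epi and 235, 166 and 78.9 TPM in VE_ExE (log2 difference -2.48 ± 0.46, adjusted p = 2.1e-05). The cultured libraries did not overlap the in vivo ones for either gene. Cldn6 of tight junctions (1.58 ± 0.13), the microvillar linker gene Ezr (1.15 ± 0.16) and the keratin gene Krt18 (1.66 ± 0.14) rose. Lamp1, Ctsd and Ezr lost their calls after median-ratio scaling. Ctsd lost its call with the regions averaged before the log and with the 5 in vivo libraries weighted equally.

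More endoderm transcription factors rose than fell. On their list, 12 of 20 tested members rose and 2 fell (quantile 10 and 3, median-ratio 10 and 2, 3-group fit 10 and 0), with a list median of 1.32. Set against VE_Epi alone, 6 rose and 3 fell (median 0.56), beside 12.8% and 5.33% of all genes. Set against VE_ExE alone, 12 rose and 0 fell (median 1.54), beside 28% and 5.88%. Sox17, which specifies endoderm, had 132, 173 and 219 TPM in cultured VE, against 9.96 and 10.8 TPM in VE_Epi and 49.9, 17.8 and 43.1 TPM in VE_ExE (log2 difference 3.11 ± 0.30, adjusted p = 5.1e-12). Gata4 (1.81 ± 0.29), Foxa2 (1.53 ± 0.37) and Sox7 (1.57 ± 0.35), all regulators of primitive or visceral endoderm, also had 3 cultured libraries above the 5 in vivo libraries. Mixl1, a homeobox gene of mesendoderm, had 1408, 1345 and 1365 TPM in cultured VE, against 996 and 791 TPM in VE_Epi and 164, 43.6 and 53.4 TPM in VE_ExE (log2 difference 2.42 ± 0.50, adjusted p = 1.0e-04). Cultured values were above all in vivo values and closest to VE_Epi. Sall4 (-0.31) and Cited1 (-0.08), abundant factors of the list, were not called. Nr2f2, a nuclear receptor, fell (log2 difference -1.29 ± 0.29, adjusted p = 2.3e-04) at low levels that overlapped VE_ExE. Foxa2 and Nr2f2 lost their calls in the 3-group fit. Nr2f2 lost its call with the 8 libraries alone. Foxa2, Sox7, Mixl1 and Nr2f2 lost their calls with a pseudocount of 0.1 TPM.

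Genes of the distal and anterior VE did not move as a block. Of this list 8 of 14 tested members rose and 2 fell (quantile 7 and 3, median-ratio 7 and 3, 3-group fit 6 and 1). Against VE_Epi alone, 0 of 14 rose and 6 fell, beside 12.8% and 5.33% of all genes, and against VE_ExE alone 11 rose and 0 fell, beside 28% and 5.88%. The label of cultured VE names no region. For every regional gene, a mix of regions in those libraries and a change within a region cannot be told apart. Cer1 (chr4:82881751-82885148), a secreted inhibitor of NODAL, BMP and WNT, had 1.27, 1.15 and 2.37 TPM in cultured VE, against 198 and 209.8 TPM in VE_Epi and 0 TPM in all 3 VE_ExE libraries. Lefty1, a NODAL inhibitor, had 7.7, 9.01 and 9.5 TPM in cultured VE, against 92 and 100.3 TPM in VE_Epi and 0 TPM in all 3 VE_ExE libraries. For both genes the cultured libraries sat near the bottom of the gap between the regions, well below both VE_Epi libraries. Cer1 was -6.33 ± 0.28 against VE_Epi (adjusted p = 6.6e-25), and Lefty1 was -3.32 ± 0.47 (2.7e-07). Hhex, a homeobox gene of the distal tip, had 67.6, 58.6 and 63.7 TPM in cultured VE, against 478 and 407 TPM in VE_Epi and 83.8, 40.4 and 21.4 TPM in VE_ExE. The difference was -2.78 ± 0.55 against VE_Epi (adjusted p = 1.1e-04). Its cultured values overlapped VE_ExE. Against both regions the Hhex difference was -1.10 ± 0.44 (adjusted p = 0.044) and lost its call without any 1 of the 8 libraries other than VE_ExE replicate 3 (log2 -0.85 to -1.16, adjusted p = 0.052 to 0.12). The Hhex call was also lost in the fit of only the 3 groups (adjusted p = 0.14), with the 8 libraries alone (0.065), with array weights (0.14), without the filter (0.066), with the replicate block (0.053), with a pseudocount of 0.1 TPM (0.30) and with the 5 in vivo libraries weighted equally (0.17).

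Other genes of the same list took several positions relative to the regions. Otx2, a homeobox gene that anterior VE needs, had 126, 94.2 and 93.4 TPM in cultured VE, against 123 and 118 TPM in VE_Epi and 0 TPM in all 3 VE_ExE libraries. It was -0.22 ± 0.44 against VE_Epi (adjusted p = 0.85). Gsc, another homeobox gene of anterior VE, had 73.5, 55.7 and 84.8 TPM in cultured VE, against 54.4 and 36.1 TPM in VE_Epi and 0 TPM in all 3 VE_ExE libraries (0.65 ± 0.44 against VE_Epi, adjusted p = 0.32). Cultured and VE_Epi values overlapped for Otx2, cultured values were the higher ones for Gsc, and both genes were listed at 0 in VE_ExE. Lhx1, a LIM homeobox gene, had 314, 254 and 316 TPM in cultured VE, against 754 and 671 TPM in VE_Epi and 43.5, 33.7 and 48.8 TPM in VE_ExE, between the regions. Hesx1, another homeobox gene, had 56.6, 58.1 and 45.1 TPM in cultured VE, against 197 and 175 TPM in VE_Epi and 35.9, 68 and 69.2 TPM in VE_ExE, at the VE_ExE level and below VE_Epi. The WNT inhibitor gene Sfrp1 had 315, 294 and 299 TPM in cultured VE, against 689 and 593 TPM in VE_Epi and 13.9, 0 and 3.24 TPM in VE_ExE, again between the regions. Over both regions Otx2 (3.24 ± 0.36), Gsc (3.41 ± 0.36) and Sfrp1 (2.59 ± 0.50) were called higher and Cer1 (-2.49 ± 0.22) lower. The averaging of logs lets a gene at 0 in VE_ExE count as higher: with the regions' TPM averaged first, Otx2 was 0.77, Sfrp1 -0.10 and Gsc 1.59. Sfrp1 lost its call in the 3-group fit. Cer1 lost its call with a pseudocount of 0.1 TPM. Otx2 and Sfrp1 lost their calls with the regions averaged before the log.

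Genes of the VE over the extra-embryonic ectoderm were split too. On that list 5 of 14 tested members rose and 3 fell (quantile 2 and 5, median-ratio 2 and 6, 3-group fit 0 and 3, without Actb and Rn45s 3 and 3, VE_ExE replicate 1 alone 3 and 3). The number that rose was 3 without cultured replicate 2, cultured replicate 3 or VE_ExE replicate 3, and 2 without VE_Epi replicate 2. Fxyd2, a regulator of the sodium pump, had 2.82, 2.5 and 10.8 TPM in cultured VE, against 13.8 and 16.9 TPM in VE_Epi and 156, 85.1 and 43.9 TPM in VE_ExE (log2 difference -2.78 ± 0.44, adjusted p = 8.0e-07). The sodium-coupled transporter gene Slc13a4 had 28.5, 33 and 30.2 TPM in cultured VE, against 60.6 and 49.7 TPM in VE_Epi and 142, 81 and 75.4 TPM in VE_ExE (log2 difference -1.22 ± 0.40, adjusted p = 0.012). In both, the cultured libraries were below all in vivo libraries. Msx2 (2.19 ± 0.46) and Wnt11 (2.82 ± 0.43) of the same list rose. Fabp1, the liver-type fatty acid binding protein from the lipid list, had 7.41, 7.17 and 2.9 TPM in cultured VE, against 39.7 and 23.7 TPM in VE_Epi and 406, 325 and 519 TPM in VE_ExE (log2 difference -4.14 ± 0.33, adjusted p = 5.3e-15). It was highest in VE_ExE and lowest in cultured VE. Msx2 and Wnt11 lost their calls in the 3-group fit. Slc13a4 lost its call with a pseudocount of 0.1 TPM.

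Targets of p53, the transcription factor that answers DNA damage and other stress, rose with no member falling. On this list, 14 of 18 tested members rose and 0 fell (quantile 11 and 0, median-ratio 12 and 0, 3-group fit 8 and 0), and the list's median difference was 1.95 against 0.33 over all genes. Plk2 (chr13:110395046-110400844), a polo-like kinase, had 65.5, 66 and 86.6 TPM in cultured VE, against 2.65 and 1.16 TPM in VE_Epi and 0.202, 0 and 0 TPM in VE_ExE (log2 difference 5.40 ± 0.43, adjusted p = 5.4e-15). Phlda3, an inhibitor of AKT, had 58.3, 57 and 66.2 TPM in cultured VE, against 3.13 and 4.5 TPM in VE_Epi and 0.254, 1.23 and 0 TPM in VE_ExE (log2 difference 4.57 ± 0.27, adjusted p = 3.0e-19). Cdkn1a (chr17:29090976-29100727), the cyclin-dependent kinase inhibitor p21, had 57.2, 59.5 and 64.9 TPM in cultured VE, against 2.34 and 7.12 TPM in VE_Epi and 0, 13.6 and 20 TPM in VE_ExE (log2 difference 3.37 ± 0.41, adjusted p = 2.8e-09). In all of these genes every cultured library was above every in vivo library. Ccng1, a cyclin G, averaged 96.6 ± 12.7 TPM in cultured VE, 11.6 ± 9.22 TPM in VE_Epi and 18.9 ± 16.1 TPM in VE_ExE (log2 difference 3.09 ± 0.39, adjusted p = 6.3e-09). Perp, a membrane protein of desmosomes, had 27.2, 30.8 and 37.7 TPM in cultured VE, against 1.71 and 7.91 TPM in VE_Epi and 0 TPM in all 3 VE_ExE libraries (log2 difference 3.88 ± 0.40, adjusted p = 2.7e-11). The apoptosis genes Bax (1.30 ± 0.17) and Pmaip1 (1.83 ± 0.48) rose. Bbc3, the BH3-only gene for PUMA, had 3.55, 3.78 and 2.75 TPM in cultured VE, and was listed at 0 in all 5 in vivo libraries (adjusted p = 1.1e-04). Mdm2, the ubiquitin ligase that limits p53, had 64.9, 61.1 and 68.3 TPM in cultured VE, against 27.5 and 25.8 TPM in VE_Epi and 39, 43.9 and 40 TPM in VE_ExE (log2 difference 0.95 ± 0.20, adjusted p = 1.7e-04) and fell short of a call. Sesn1 was not called (0.10). Pmaip1 lost its call after quantile normalization and with the 8 libraries alone. Bax lost its call after median-ratio scaling and with VE_ExE replicate 1 alone for its group. Cdkn1a, Ccng1, Bax and Pmaip1 lost their calls in the 3-group fit.

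Promoters of 3 of the p53 targets that rose are shown because they hold the 10-base half-site that p53 binds in pairs. The sequences are from RefSeq on GRCm38.p6 and run from 250 bases before the start site to 50 after it, 5′ to 3′ on the gene's strand, with half-sites in capitals.
Cdkn1a promoter, chr17:29090729-29091028, plus strand: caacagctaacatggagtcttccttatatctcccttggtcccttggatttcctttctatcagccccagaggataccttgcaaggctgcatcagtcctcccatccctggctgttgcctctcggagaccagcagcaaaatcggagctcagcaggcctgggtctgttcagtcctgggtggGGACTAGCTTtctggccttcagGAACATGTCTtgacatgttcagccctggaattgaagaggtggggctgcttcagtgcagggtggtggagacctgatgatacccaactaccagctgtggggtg
Ccng1 promoter, chr11:40755237-40755536, minus strand: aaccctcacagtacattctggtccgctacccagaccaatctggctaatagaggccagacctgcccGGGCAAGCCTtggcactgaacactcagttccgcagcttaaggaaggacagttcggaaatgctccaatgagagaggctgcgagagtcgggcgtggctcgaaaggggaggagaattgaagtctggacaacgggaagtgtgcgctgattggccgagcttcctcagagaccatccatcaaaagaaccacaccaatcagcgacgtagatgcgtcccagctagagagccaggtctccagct
Bax promoter, chr7:45466849-45467148, minus strand: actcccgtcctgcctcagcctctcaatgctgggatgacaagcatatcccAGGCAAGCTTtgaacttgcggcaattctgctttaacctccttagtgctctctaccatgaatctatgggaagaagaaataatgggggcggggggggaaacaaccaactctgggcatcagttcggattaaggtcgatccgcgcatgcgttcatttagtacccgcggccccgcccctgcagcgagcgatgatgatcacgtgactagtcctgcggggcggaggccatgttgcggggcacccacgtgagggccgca
The half-site class reads the same on both strands. A half-site was found in 7 of 20 promoters, of 6 of the 14 list genes in the promoter table, and in 2745 of all 32851 promoters (8.36%). The 7 include overlapping windows of a single gene that hold the same site. Mdm2 and Sesn1, which were not called, hold half-sites as well. Only the Cdkn1a window, of those 20 promoters, had a pair of exact matches close enough to make a full site. So did 24 of all promoters (0.0731%), and a full site contains its half-sites. A stretch that misses the pattern at any base was left in lower case. A match is a description of the letters and not a bound site.

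Immediate early genes, which respond to growth factors, calcium and stress within minutes, rose as well. On their list, 12 of 18 tested members rose and 0 fell (quantile 9 and 1, median-ratio 11 and 1, 3-group fit 4 and 0). Egr1, a zinc finger factor, had 47.4, 52.1 and 39.9 TPM in cultured VE, against 0.0672 and 1.94 TPM in VE_Epi and 19.6, 5.92 and 2.46 TPM in VE_ExE (log2 difference 3.66 ± 0.31, adjusted p = 4.3e-14). Fos, a subunit of AP-1, had 121, 118 and 134 TPM in cultured VE, against 10.7 and 14.1 TPM in VE_Epi and 93.6, 25.4 and 56.6 TPM in VE_ExE (log2 difference 2.25 ± 0.31, adjusted p = 7.2e-08). All cultured libraries were above all in vivo ones, and VE_ExE replicate 1 was the in vivo library nearest to them in both genes. Junb (2.10 ± 0.29), Ier2 (1.94 ± 0.16), Dusp1 (1.82 ± 0.27) and Zfp36 (1.79 ± 0.35) also rose without overlap. With VE_ExE replicate 1 alone for its group, 9 members rose. Of the oxidative stress and NRF2 targets, 9 of 19 tested members rose and 0 fell (quantile 6 and 0, median-ratio 4 and 1, 3-group fit 4 and 0). Gsr, glutathione reductase, had 259.5, 248 and 278 TPM in cultured VE, against 66 and 73.6 TPM in VE_Epi and 40.7, 85.4 and 52 TPM in VE_ExE (log2 difference 2.04 ± 0.21, adjusted p = 3.2e-11). Txnrd1, thioredoxin reductase, rose by 2.15 ± 0.31. Of the amino acid starvation genes, 7 of 19 tested members rose and 0 fell (quantile 6 and 0, median-ratio 5 and 0, 3-group fit 3 and 0), among them Psat1 of serine synthesis (1.65 ± 0.17) and Sesn2 (2.61 ± 0.41). Few chaperone genes were called: of the endoplasmic reticulum list 1 of 17 tested members rose and 2 fell (quantile 1 and 3, median-ratio 1 and 3, 3-group fit 1 and 2, VE_ExE replicate 1 alone 3 and 1), and of the heat shock list 1 of 12 tested members rose and 0 fell (quantile 1 and 1, median-ratio 0 and 3, 3-group fit 1 and 0, without Actb and Rn45s 1 and 1). Junb, Dusp1, Zfp36 and Txnrd1 lost their calls in the 3-group fit. Zfp36 lost its call with the 8 libraries alone.

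**Figure D4:**
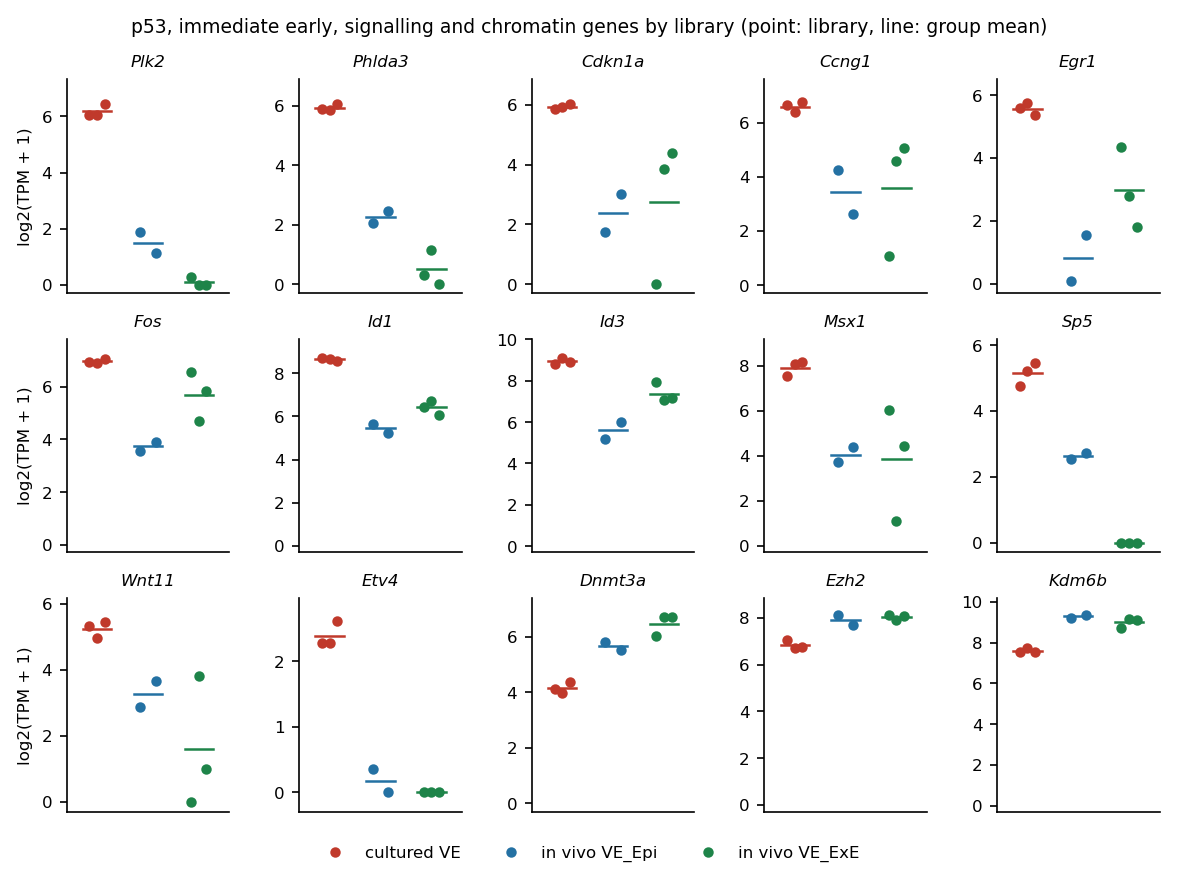
log2(TPM + 1) of p53 target, immediate early, signalling and chromatin genes, one point per library and a line at the group mean, for cultured VE (red), VE_Epi (blue) and VE_ExE (green). The 3 cultured libraries are above all 5 in vivo libraries in the first 12 panels, from Plk2 to Etv4, and below all 5 for Dnmt3a, Ezh2 and Kdm6b.

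In the BMP, WNT and FGF lists more members rose than fell, under both other scalings too. Against VE_Epi alone 9, 6 and 5 members rose and 0, 1 and 0 fell, beside 12.8% and 5.33% of all genes. Against VE_ExE alone 10, 12 and 12 rose and 1, 0 and 1 fell, beside 28% and 5.88%. The WNT median was 0.10 against VE_Epi, below 0.21 over all genes, and 1.46 against VE_ExE. Of BMP genes, 10 of 19 tested members rose and 0 fell (quantile 8 and 0, median-ratio 7 and 0, 3-group fit 5 and 0, VE_ExE replicate 1 alone 10 and 1). Id1 (chr2:152736251-152737410), the standard transcriptional readout of BMP, had 417, 408 and 377 TPM in cultured VE, against 49.3 and 36.8 TPM in VE_Epi and 86.9, 106 and 66.4 TPM in VE_ExE (log2 difference 2.71 ± 0.28, adjusted p = 3.7e-11). Id3 had 447, 540.3 and 478 TPM in cultured VE, against 35.8 and 62.3 TPM in VE_Epi and 243, 131 and 139.8 TPM in VE_ExE (log2 difference 2.45 ± 0.25, adjusted p = 1.4e-11). Msx1, a homeobox target of BMP, had 186, 265 and 286 TPM in cultured VE, against 12.1 and 19.7 TPM in VE_Epi and 65.2, 1.14 and 20.5 TPM in VE_ExE (log2 difference 3.97 ± 0.63, adjusted p = 9.0e-07). The cultured libraries did not overlap the in vivo ones in any of these genes. The transducer gene Smad1 rose (1.37 ± 0.34), the ligand gene Bmp2 (0.83) and the receptor gene Bmpr1a (0.07) were not called, and Id2 (-0.51) was highest in VE_ExE.

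Of WNT genes, 11 of 19 tested members rose and 0 fell (quantile 9 and 0, median-ratio 8 and 0, 3-group fit 6 and 0). Sp5 (chr2:70474923-70477729), a direct target of beta-catenin, had 25.9, 35.8 and 42.9 TPM in cultured VE, against 4.79 and 5.56 TPM in VE_Epi and 0 TPM in all 3 VE_ExE libraries (log2 difference 3.82 ± 0.34, adjusted p = 2.4e-13). The ligand gene Wnt11 had 39.2, 30.4 and 42.3 TPM in cultured VE, against 6.32 and 11.6 TPM in VE_Epi and 0, 12.9 and 0.989 TPM in VE_ExE (log2 difference 2.82 ± 0.43, adjusted p = 4.1e-07). The ligand gene Wnt3 had 43.9, 54 and 51.6 TPM in cultured VE, against 4.97 and 9.49 TPM in VE_Epi and 35.6, 0 and 15.2 TPM in VE_ExE (log2 difference 2.63 ± 0.58, adjusted p = 2.1e-04). Cultured libraries were above all in vivo libraries in the 3 genes. Ctnnb1, beta-catenin itself, rose by 1.36 ± 0.19, while Tcf7 (0.06) and the ligase gene Znrf3 (-0.57) were not called. Of FGF and ERK genes, 12 of 18 tested members rose and 0 fell (quantile 7 and 1, median-ratio 10 and 2, 3-group fit 5 and 0, VE_ExE replicate 1 alone 12 and 1). Etv4, an ETS factor downstream of FGF, had 3.87, 3.88 and 5.14 TPM in cultured VE, against 0.279 and 0 TPM in VE_Epi and 0 TPM in all 3 VE_ExE libraries (log2 difference 2.31 ± 0.36, adjusted p = 8.6e-07). Dusp4, an ERK phosphatase, averaged 38.4 ± 6.62 TPM in cultured VE, 9.07 ± 8.23 TPM in VE_Epi and 14.3 ± 6.82 TPM in VE_ExE (log2 difference 1.86 ± 0.37, adjusted p = 4.3e-05). The feedback inhibitor genes Spred1 (2.10 ± 0.32) and Spry1 (2.23 ± 0.49) rose. Spry2, the most abundant of them, had 310.2, 309 and 276 TPM in cultured VE, against 521 and 493 TPM in VE_Epi and 509, 521 and 467 TPM in VE_ExE (log2 difference -0.75 ± 0.38, adjusted p = 0.11).

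NODAL and activin genes were mixed, read beside 22.9% higher and 5.02% lower over all genes. On that list 4 of 16 tested members rose and 1 fell (quantile 3 and 2, median-ratio 3 and 2, 3-group fit 4 and 1, without Actb and Rn45s 4 and 2, VE_ExE replicate 1 alone 8 and 2). Tdgf1, the co-receptor Cripto, had 10.6, 9.6 and 11 TPM in cultured VE, and was listed at 0 in all 5 in vivo libraries (adjusted p = 4.0e-21). Foxh1, the factor that partners SMAD proteins at NODAL targets, had 76.9, 67.7 and 94.3 TPM in cultured VE, against 42 and 39.2 TPM in VE_Epi and 0 TPM in all 3 VE_ExE libraries (log2 difference 3.63 ± 0.26, adjusted p = 1.3e-16). The ligand gene Nodal had 25.5, 20.2 and 29.7 TPM in cultured VE, against 18.2 and 15.3 TPM in VE_Epi and 0, 0.0888 and 3.17 TPM in VE_ExE (log2 difference 2.25 ± 0.40, adjusted p = 7.0e-06). All were above every in vivo library. These genes are also active in the epiblast, and of the genes that define it Pou5f1 had 0.797, 0.639 and 1.86 TPM in cultured VE, against 0 and 0.215 TPM in VE_Epi and 0 TPM in all 3 VE_ExE libraries, while Nanog was listed at 0 in cultured VE. Over the whole list of 13 epiblast markers, 5 rose and 0 fell, beside 22.9% and 5.02% of all genes. In 8 of the 13 the cultured libraries were above all in vivo ones, beside 20.2% of all genes. The part of epiblast cells in the NODAL genes was not tested. The inhibitors of the pathway, Lefty1 and Cer1, stood far below VE_Epi, as given above. Of the hedgehog and retinoid genes, 3 of 15 tested members rose and 2 fell (quantile 2 and 2, median-ratio 1 and 2, 3-group fit 2 and 1). Dhrs3, a retinal reductase, had 12.2, 17.3 and 7.45 TPM in cultured VE, against 63.1 and 83 TPM in VE_Epi and 172, 306 and 358 TPM in VE_ExE (log2 difference -3.47 ± 0.43, adjusted p = 2.9e-09). The cultured libraries were below all in vivo libraries. Smad1 and Ctnnb1 lost their calls after median-ratio scaling. Msx1, Wnt11, Wnt3, Dusp4, Spred1 and Spry1 lost their calls in the 3-group fit. Wnt3 and Spry1 lost their calls with the 8 libraries alone. Smad1 lost its call with VE_ExE replicate 1 alone for its group and with a pseudocount of 0.1 TPM.

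Actb was the gene of highest share in vivo, with 32257, 30264 and 28074 TPM in cultured VE, against 98865 and 104144 TPM in VE_Epi and 96648, 153742 and 146372 TPM in VE_ExE (log2 difference -1.93 ± 0.14, adjusted p = 1.7e-16). It was lower in every cultured library. After quantile normalization, where it holds the top rank in all libraries, its difference was 0, and after median-ratio scaling it was -2.34. In the fit of only the 3 groups its adjusted p was 0.077, which ended the call. Of the actin cytoskeleton list, which holds Actb, 7 of 18 tested members rose and 3 fell (quantile 7 and 2, median-ratio 4 and 3, 3-group fit 5 and 1). The tropomyosin gene Tpm4 (2.22 ± 0.21) and the filamin gene Flna (2.65 ± 0.27) rose, as did Actg1, the other cytoplasmic actin (1.23 ± 0.13), and Tpm3 fell (-1.06 ± 0.08). Of YAP and SRF targets, 6 of 17 tested members rose and 1 fell (quantile 4 and 2, median-ratio 6 and 2, 3-group fit 4 and 0). Ccn1, a matricellular target of both factors, had 186, 182 and 221 TPM in cultured VE, against 38.4 and 32.7 TPM in VE_Epi and 54.7, 23.5 and 24.3 TPM in VE_ExE (log2 difference 2.51 ± 0.22, adjusted p = 1.5e-13). Ccn2 (2.48 ± 0.38) and Vcl, which encodes the focal adhesion protein vinculin (2.01 ± 0.34), rose likewise, with no overlap between cultured and in vivo libraries. Actg1 lost its call after median-ratio scaling. Tpm3 lost its call with VE_ExE replicate 1 alone for its group.

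Among the 10 genes of largest rise whose libraries did not overlap was Cnn2, the actin-binding calponin, with 138, 118 and 150.3 TPM in cultured VE, against 4.13 and 7.42 TPM in VE_Epi and 0.738, 13.5 and 0.231 TPM in VE_ExE (log2 difference 4.90 ± 0.45, adjusted p = 5.4e-13). Promoters of Cnn2, Actg1 and Vcl are shown because each rose and each holds a CArG box, the site bound by SRF, here in capitals. They cover the same window from RefSeq on GRCm38.p6.
Cnn2 promoter, chr10:79988350-79988649, plus strand: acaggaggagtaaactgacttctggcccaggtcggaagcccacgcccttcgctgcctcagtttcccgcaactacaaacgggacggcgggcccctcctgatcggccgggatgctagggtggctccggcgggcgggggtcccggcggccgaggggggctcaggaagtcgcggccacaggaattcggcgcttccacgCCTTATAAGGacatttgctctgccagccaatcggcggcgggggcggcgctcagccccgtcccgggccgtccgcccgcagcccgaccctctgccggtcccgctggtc
Actg1 promoter, chr11:120348446-120348745, minus strand: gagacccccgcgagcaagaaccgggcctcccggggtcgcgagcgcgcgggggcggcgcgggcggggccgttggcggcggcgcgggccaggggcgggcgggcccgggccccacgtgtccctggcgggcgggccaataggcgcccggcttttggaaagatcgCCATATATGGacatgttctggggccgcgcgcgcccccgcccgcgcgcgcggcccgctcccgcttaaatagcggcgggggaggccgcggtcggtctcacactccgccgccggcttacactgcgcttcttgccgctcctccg
Vcl promoter, chr14:20929148-20929447, plus strand: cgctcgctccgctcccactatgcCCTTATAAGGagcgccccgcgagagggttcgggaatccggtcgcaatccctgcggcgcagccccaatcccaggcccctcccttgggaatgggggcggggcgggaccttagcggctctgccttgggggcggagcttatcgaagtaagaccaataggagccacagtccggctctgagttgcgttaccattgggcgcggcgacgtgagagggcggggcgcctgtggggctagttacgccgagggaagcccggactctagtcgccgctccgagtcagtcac
The box, which reads the same on both strands as a class, was found in 535 of 32851 promoters (1.63%). It was found in promoters of 3 of 12 genes of the YAP and SRF list, 2 of 17 of the actin list and 2 of 15 of the immediate early list. Some of those genes were not called.

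Of cholesterol synthesis genes, 9 of 23 tested members rose and 1 fell (quantile 6 and 2, median-ratio 5 and 2, 3-group fit 5 and 1). Sc5d, a late desaturase of the pathway, had 139, 125 and 131 TPM in cultured VE, against 18.6 and 31.4 TPM in VE_Epi and 40, 53.2 and 28.7 TPM in VE_ExE (log2 difference 2.05 ± 0.33, adjusted p = 1.1e-06). Sqle, squalene epoxidase, had 155, 137 and 160.3 TPM in cultured VE, against 27.6 and 35.9 TPM in VE_Epi and 11.8, 48.8 and 125 TPM in VE_ExE (log2 difference 2.02 ± 0.31, adjusted p = 4.7e-07). Srebf2, the factor that drives the pathway, rose by 1.62 ± 0.30. Insig1, which holds that factor back in the endoplasmic reticulum, had 266, 252 and 233 TPM in cultured VE, against 335 and 380.4 TPM in VE_Epi and 1305, 5962 and 5543 TPM in VE_ExE (log2 difference -2.16 ± 0.33, adjusted p = 4.7e-07). Each of these genes had cultured libraries outside the in vivo range. Insig1 was not called against VE_Epi alone (-0.51 ± 0.41, adjusted p = 0.41) and was -3.81 ± 0.37 against VE_ExE alone. Of iron genes, 6 of 13 tested members rose and 1 fell (quantile 7 and 2, median-ratio 4 and 1, 3-group fit 6 and 0). Ncoa4, the receptor that sends ferritin to lysosomes, had 152, 129 and 168 TPM in cultured VE, against 33.7 and 38.7 TPM in VE_Epi and 7.03, 24.1 and 17.1 TPM in VE_ExE (log2 difference 2.65 ± 0.34, adjusted p = 6.5e-09). The iron exporter gene Slc40a1 rose by 2.13 ± 0.41 and the ferritin heavy chain gene Fth1 by 1.42 ± 0.08. Of glycolysis genes, 3 of 18 tested members rose and 0 fell (quantile 3 and 0, median-ratio 1 and 1, 3-group fit 2 and 0), and of hypoxia genes 2 of 17 tested members rose and 0 fell (quantile 1 and 1, median-ratio 2 and 1, 3-group fit 1 and 0, VE_ExE replicate 1 alone 4 and 0). The glucose transporter gene Slc2a3 rose by 1.32 ± 0.27 and the kinase gene Pkm by 1.09 ± 0.11, while Aldoa (0.12) and Eno1 (0.22) were not called. Of oxidative phosphorylation genes, 5 of 18 tested members rose and 0 fell (quantile 3 and 0, median-ratio 1 and 1, 3-group fit 3 and 0, without Actb and Rn45s 2 and 0, VE_ExE replicate 1 alone 3 and 0), with Uqcrfs1 of complex III at 1.46 ± 0.13. Without VE_ExE replicate 2, 3 of them rose. Slc2a3 and Pkm lost their calls after median-ratio scaling and with VE_ExE replicate 1 alone for its group. Sqle lost its call in the 3-group fit. Pkm lost its call without Actb and Rn45s.

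Chromatin genes went in both directions. Of H3K4 methyltransferase and demethylase genes, 3 of 17 tested members rose and 5 fell (quantile 2 and 10, median-ratio 3 and 10, 3-group fit 0 and 4, without Actb and Rn45s 3 and 8), and the list's median was -0.76. That list also holds Kdm6b, a demethylase of H3K27, which had 187, 209 and 185 TPM in cultured VE, against 597 and 644 TPM in VE_Epi and 426, 563 and 542 TPM in VE_ExE (log2 difference -1.53 ± 0.29, adjusted p = 3.0e-05). The demethylase gene Kdm1a had 73.9, 63.4 and 80.7 TPM in cultured VE, against 207 and 204 TPM in VE_Epi and 185, 205 and 153 TPM in VE_ExE (log2 difference -1.40 ± 0.23, adjusted p = 3.0e-06). The methyltransferase gene Setd1b had 2.65, 3.14 and 2.74 TPM in cultured VE, against 19.3 and 17.4 TPM in VE_Epi and 8.29, 18 and 8.34 TPM in VE_ExE (log2 difference -1.98 ± 0.27, adjusted p = 3.9e-08). Cultured libraries were below all in vivo ones for each. Kdm5b fell too (-1.18 ± 0.22). Of Polycomb genes, 13 of 30 tested members rose and 1 fell (quantile 5 and 4, median-ratio 6 and 3, 3-group fit 6 and 1), so that the excess of higher members depended on the scaling. Ezh2, the H3K27 methyltransferase, had 133, 104 and 107 TPM in cultured VE, against 273 and 203 TPM in VE_Epi and 276, 238 and 269 TPM in VE_ExE (log2 difference -1.11 ± 0.25, adjusted p = 2.3e-04). Cbx2 (2.01 ± 0.43) and Pcgf5 (1.63 ± 0.29), subunits of Polycomb complexes of the first kind, rose. Of DNA methylation genes, 1 of 12 tested members rose and 2 fell (quantile 0 and 3, median-ratio 0 and 3, 3-group fit 1 and 2). Dnmt3a, a de novo methyltransferase, had 16.5, 14.5 and 19.8 TPM in cultured VE, against 55.6 and 44.8 TPM in VE_Epi and 63.8, 103 and 103 TPM in VE_ExE (log2 difference -1.92 ± 0.16, adjusted p = 2.4e-14). Dnmt3b had 312, 293 and 289.8 TPM in cultured VE, against 252 and 213 TPM in VE_Epi and 167, 136 and 126 TPM in VE_ExE (log2 difference 0.71 ± 0.20, adjusted p = 0.0029). The cultured libraries were below all in vivo libraries for Dnmt3a and above them, short of a call, for Dnmt3b. Tet2, which oxidizes methylcytosine, fell (log2 difference -2.23 ± 0.27, adjusted p = 2.7e-09).

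Proliferation genes are read beside 22.9% higher and 5.02% lower over all genes, with a median of 0.33. The list medians were 0.39 for mitosis and 0.62 for DNA replication. Of mitosis genes, 2 of 19 tested members rose and 1 fell (quantile 2 and 4, median-ratio 0 and 3, 3-group fit 0 and 1, without Actb and Rn45s 2 and 2, VE_ExE replicate 1 alone 1 and 2), and of DNA replication genes 4 of 19 tested members rose and 0 fell (quantile 2 and 1, median-ratio 1 and 1, 3-group fit 2 and 0, without Actb and Rn45s 2 and 0, VE_ExE replicate 1 alone 1 and 0). Without VE_Epi replicate 2, 2 replication genes rose. Top2a, the topoisomerase of dividing cells, had 126, 112 and 126 TPM in cultured VE, against 433 and 373 TPM in VE_Epi and 244, 265 and 265 TPM in VE_ExE (log2 difference -1.40 ± 0.20, adjusted p = 1.4e-07). Pcna, the replication clamp, was not called (-0.14). Of cytoplasmic ribosomal protein genes, 7 of 25 tested members rose and 2 fell (quantile 7 and 2, median-ratio 3 and 5, 3-group fit 7 and 2, VE_ExE replicate 1 alone 6 and 1). The shares over all genes were 22.9% higher and 5.02% lower. Rps19 (1.59 ± 0.13) and Rpl13 (1.55 ± 0.11) rose, each without overlap.

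The largest single differences lay partly outside the lists. Rpgrip1 (chr14:52110704-52163546), known for a protein of the photoreceptor cilium, had 7.2, 13.8 and 4.55 TPM in cultured VE, against 1039.9 and 959.8 TPM in VE_Epi and 671, 1013 and 1133 TPM in VE_ExE (log2 difference -6.77 ± 0.66, adjusted p = 4.7e-12). Rpl39l (chr16:10170226-10174911), a ribosomal protein paralog used in the male germline, had 0.125, 0.725 and 0 TPM in cultured VE, against 145 and 174 TPM in VE_Epi and 204, 201 and 169.7 TPM in VE_ExE (log2 difference -7.13 ± 0.23, adjusted p = 1.0e-30). Both were far lower in every cultured library than in any in vivo library. Rps18-ps4, a processed pseudogene, had 249.7, 257 and 218 TPM in cultured VE, against 4.35 and 7.0 TPM in VE_Epi and 3.18, 6.31 and 3.82 TPM in VE_ExE (log2 difference 5.37 ± 0.17, adjusted p = 6.5e-31). Rpl39l and Rps18-ps4 have near-identical copies, so the split of reads between copies is uncertain. Lncenc1, a long noncoding RNA of embryonic stem cells, had 1.26, 0 and 0 TPM in cultured VE, against 74.4 and 86.1 TPM in VE_Epi and 55.7, 73.9 and 43.9 TPM in VE_ExE (log2 difference -5.70 ± 0.43, adjusted p = 8.7e-16). Sycp3, a component of the meiotic chromosome axis, had 4.5, 11.4 and 15.9 TPM in cultured VE, against 87.1 and 79.6 TPM in VE_Epi and 219, 229 and 170.2 TPM in VE_ExE (log2 difference -3.65 ± 0.37, adjusted p = 1.5e-11). Both were below all in vivo libraries in cultured VE.

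On the higher side, Csrp1, a LIM protein of the actin cytoskeleton, had 36.2, 24.5 and 36.8 TPM in cultured VE, and was listed at 0 in all 5 in vivo libraries (adjusted p = 4.4e-16). The imprinted gene Mest had 442, 381 and 482 TPM in cultured VE, against 109.7 and 109 TPM in VE_Epi and 12.4, 0.0361 and 0 TPM in VE_ExE (log2 difference 4.74 ± 0.45, adjusted p = 1.9e-12). Gas6, a ligand of TAM receptors, had 121, 112 and 141 TPM in cultured VE, against 8.29 and 8.32 TPM in VE_Epi and 4.1, 0 and 0 TPM in VE_ExE (log2 difference 4.97 ± 0.48, adjusted p = 3.7e-12). Igfbp2, an IGF binding protein, had 340.3, 363 and 418 TPM in cultured VE, against 28.1 and 78.4 TPM in VE_Epi and 0.195, 0 and 19.4 TPM in VE_ExE (log2 difference 4.98 ± 0.45, adjusted p = 3.4e-13). Each was above all in vivo libraries. Cd40, a receptor of the TNF family, had 98.1, 98.1 and 103 TPM in cultured VE, against 8.4 and 4.54 TPM in VE_Epi and 0 TPM in all 3 VE_ExE libraries (log2 difference 5.23 ± 0.46, adjusted p = 2.6e-13). Pdpn, the membrane glycoprotein podoplanin, was among the 10 largest falls, with 224, 223 and 197 TPM in cultured VE, against 1739.9 and 1823 TPM in VE_Epi and 3017, 4645 and 4558 TPM in VE_ExE (log2 difference -3.63 ± 0.31, adjusted p = 5.3e-14). Further genes outside the lists were chosen after their values were seen. The pluripotency-associated gene Dppa5a averaged 189.6 ± 15.8 TPM in cultured VE, 1202 ± 166 TPM in VE_Epi and 1499.6 ± 132 TPM in VE_ExE (log2 difference -2.82 ± 0.08, adjusted p = 2.0e-32). Fkbp6 (-3.47 ± 0.30) and Ddx4 (-2.36 ± 0.52), known for roles in germ cells, fell. Dppa5a and Fkbp6 were also called lower in cultured than in vivo epiblast (-3.18 ± 0.10 and -3.09 ± 0.38). The same held in extra-embryonic ectoderm (-1.08 ± 0.10 and -1.36 ± 0.38), while Ddx4 was called in neither tissue. Of other germ cell genes looked at, Dazl and Mael were at 0 in all 8 VE libraries and Taf7l was not called (0.15, adjusted p = 0.89).

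The host transcript of the miR-17 to miR-92 cluster, also chosen after its values were seen, was lower in cultured VE. Mir17hg had 13.7, 15.9 and 22.6 TPM in cultured VE, against 78.6 and 44.2 TPM in VE_Epi and 78.4, 87.3 and 75.6 TPM in VE_ExE (log2 difference -1.95 ± 0.55, adjusted p = 0.0035). All 3 cultured libraries were below all 5 in vivo libraries. The call was lost with a pseudocount of 0.1 TPM (log2 -2.01, adjusted p = 0.086). The 5 tested hairpin rows inside it were lower too, from -2.73 ± 0.45 for Mir18 to -3.29 ± 0.47 for Mir20a, and since they lie in 1 primary transcript they are not separate results. The Mir92-1 row, with 0.00424 to 0.00666 TPM in cultured VE and 0.00952 to 0.0484 TPM in vivo, was not tested. Polyadenylated RNA was measured, so these values are of the precursor and not of mature miRNAs. The mature sequences of the main arms of the tested hairpins are given from RefSeq on GRCm38.p6 with the seed, bases 2 to 8, in capitals, to show which of them share a seed.
mmu-miR-17-5p, chr14:115043684-115043706, plus strand: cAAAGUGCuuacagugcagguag
mmu-miR-20a-5p, chr14:115044183-115044205, plus strand: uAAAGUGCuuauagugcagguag
mmu-miR-18a-5p, chr14:115043867-115043889, plus strand: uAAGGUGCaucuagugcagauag
mmu-miR-19a-3p, chr14:115044048-115044070, plus strand: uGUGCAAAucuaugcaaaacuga
mmu-miR-19b-3p, chr14:115044358-115044380, plus strand: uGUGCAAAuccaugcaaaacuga
The miR-17-5p and miR-20a-5p seeds are the same, and so are those of miR-19a-3p and miR-19b-3p.

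The epiblast (Epi) and extra-embryonic ectoderm (ExE) of E5.5 were also sampled from culture (3 libraries each) and in vivo (2 libraries each, means with SD), so the cultured minus in vivo difference of VE can be set beside theirs, which rest on other libraries. In Epi 2344 genes (15.1%) were higher and 1047 (6.73%) lower in culture, and in ExE 1464 (9.4%) and 378 (2.43%). Of the genes higher in cultured VE, 1108 were also higher in cultured Epi, which is 31.1% of the VE list and 47.3% of the Epi list, and 661 were also higher in cultured ExE (18.6% and 45.2%). Of the lower genes, 325 were shared with Epi (41.6% of the VE list and 31.0% of the Epi list) and 138 with ExE (17.7% and 36.5%). After quantile normalization 1592 genes (10.2%) were higher and 1586 (10.2%) lower in cultured Epi, and 759 (4.88%) and 684 (4.39%) in cultured ExE. Tested directly, the VE difference was above that of Epi in 1154 genes (7.41%) and below it in 772 (4.96%), and it was above that of ExE in 1016 (6.53%) and below it in 652 (4.19%). After median-ratio scaling these counts were 816 and 796 for Epi, and 615 and 720 for ExE.

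The p53 targets were higher in all 3 tissues: 14 of 18 rose in VE, 15 in Epi and 14 in ExE, and none fell. Cdkn1a averaged 88.5 ± 28.1 TPM in cultured Epi and 23 ± 7.34 TPM in in vivo Epi, and 58.8 ± 7.62 TPM in cultured ExE and 4.93 ± 0.564 TPM in in vivo ExE. Its differences of 3.37 ± 0.41 in VE, 1.88 ± 0.51 in Epi and 3.33 ± 0.51 in ExE were not called different. The VE difference minus that of Epi was log2 1.49 ± 0.66, adjusted p = 0.13, which became a call without VE_ExE replicate 2 (1.77, adjusted p = 0.045) or replicate 3 (1.90, 0.019), and minus that of ExE it was 0.05 ± 0.66. Plk2 differed more in VE than in Epi (3.24 ± 0.68, adjusted p = 5.9e-04). Immediate early genes gave 12 higher and 0 lower in VE, 13 and 2 in Epi, and 2 and 1 in ExE. After quantile normalization they gave 9 and 1 in VE, 12 and 2 in Epi and 1 and 4 in ExE. For Egr1 the VE difference exceeded that of ExE by 3.52 ± 0.49 (adjusted p = 4.9e-07, and 0.052 in a fit of only the groups compared). Rpgrip1 averaged 28.1 ± 3.11 TPM in cultured Epi and 1036 ± 142 TPM in in vivo Epi, and 33.6 ± 18.6 TPM in cultured ExE and 731 ± 453 TPM in in vivo ExE. Its VE difference was not called apart from either (adjusted p = 0.34 and 0.13). The Mir17hg row was called in neither tissue: it averaged 40.7 ± 7.99 TPM in cultured Epi and 115 ± 10.1 TPM in in vivo Epi (log2 difference -1.49 ± 0.68, adjusted p = 0.10), and 59.9 ± 11.9 TPM in cultured ExE and 74.1 ± 7.53 TPM in in vivo ExE (log2 difference -0.32 ± 0.68, adjusted p = 0.90). The tested hairpin rows inside it were all called lower in Epi, from -2.34 ± 0.58 for Mir20a to -2.61 ± 0.58 for Mir19b-1. None of them was called in ExE.

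The Apoa2 difference in VE was below that in Epi, with -6.70 ± 0.52 between them (adjusted p = 2.9e-13). Cultured ExE libraries held transcripts of secreted carriers, whose part in the ExE differences was not tested: Ttr averaged 90.3 ± 10.4 TPM in cultured ExE and 0.575 ± 0.369 TPM in in vivo ExE, and Apoc2 91.1 ± 13.9 TPM in cultured ExE and 0.647 ± 0.915 TPM in in vivo ExE. Of the secreted list, 9 members rose in cultured ExE and 0 fell, against 1 and 9 in Epi. In vivo Epi libraries held some of these transcripts at low and variable levels. Apoc2 averaged 13.3 ± 9.14 TPM in in vivo Epi and 1.53 ± 0.203 TPM in cultured Epi. Apom averaged 14.8 ± 13 TPM in in vivo Epi and 0.636 ± 0.595 TPM in cultured Epi. Their part in the Epi differences was not tested. The WNT target Sp5 rose more in VE than in Epi (3.04 ± 0.54, adjusted p = 5.9e-05, and 0.086 in a fit of only the groups compared) and than in ExE (3.33 ± 0.54, 1.0e-05). Id1 rose in every tissue, by 2.71 ± 0.28 in VE, 4.79 ± 0.35 in Epi and 2.44 ± 0.35 in ExE.

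**Figure D5:**
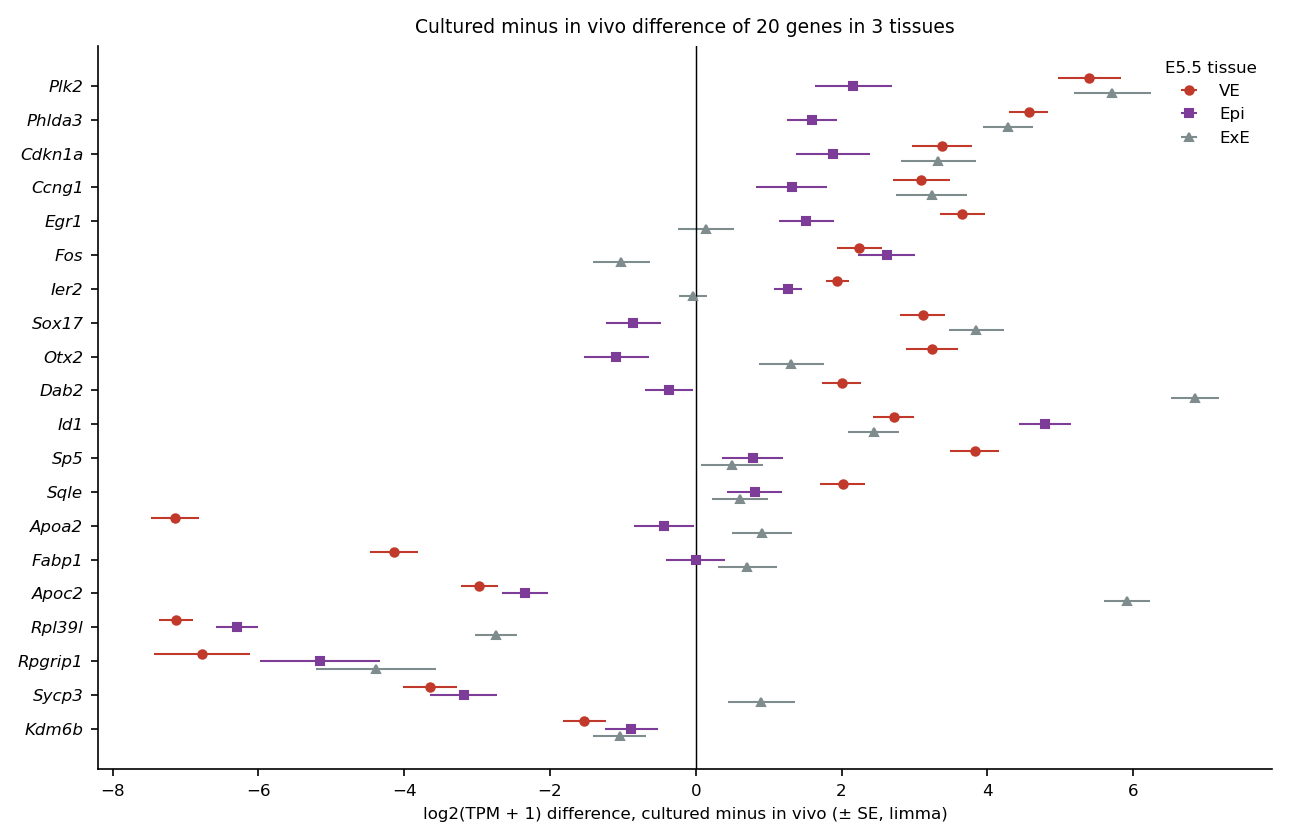
Difference in log2(TPM + 1) between cultured and in vivo libraries for 20 genes in E5.5 VE (red circles), Epi (purple squares) and ExE (grey triangles), with the standard error of the limma fit as bars. The p53 targets in the top rows lie right of 0 in all 3 tissues, Rpgrip1 and Rpl39l lie left of 0 in all 3, and Apoc2 is left of 0 in VE and Epi and right of 0 in ExE.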

How the data were processed

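RNA was measured by Smart-seq2 in 67 libraries of 23 groups, of which 8 are described here. The authors deposited 1 table of TPM values per gene and library, and tools named in the submitters' processing notes are HISAT2 2.2.1, StringTie 2.2.1 and Cufflinks, with build mm10; their roles, the annotation and the use of strand are not given in the sources used here, so reads of overlapping genes cannot be told apart. TPM holds no read depth, so no counting error was computed. Libraries were grouped by their labels.

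The filter kept 15567 of 25006 genes, those that reached 1 TPM in 3 or more libraries. They were fitted on log2(TPM + 1), pseudocount 1 TPM, with limma 3.58.1 (R 4.3.3), group means over all 67 libraries, empirical Bayes with an intensity trend, and Benjamini-Hochberg adjustment over all genes tested. Library composition was tested with an exact permutation test (scipy 1.17.1). The script was tested on simulated data. Alternatives were other scalings, pseudocounts, filters, samples and weights, each library left out, and a replicate block.

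Members and gene lists were chosen with earlier results of these data known, and some members are not reported here by name. Genes named are up to 3 called per list and direction, up to 2 uncalled of highest TPM, the 10 non-overlapping genes of largest difference per direction and the 5 of each tissue comparison; 39 others were added after their values were seen, among them Cdkn1a, Ccng1, Bax, Gata4, Foxa2, Mixl1, Sfrp1, Junb, Ier2, Smad1, Actg1 and Mir17hg.
Promoter and miRNA sequences are from RefSeq, GRCm38.p6, matched by symbol; gene positions are from GENCODE on GRCm38.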

Additional observations from a re-analysis of the deposited data

Results flagged for a closer look

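The cultured minus in vivo difference of VE was set against those of Epi and ExE by a test of the difference itself. It was passed by 1926 genes for Epi and 1668 for ExE. Values are the log2 difference in VE minus that in the other tissue, with the standard error, adjusted over all genes by limma.

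Against Epi, the largest positive values were Cyp2b23 (6.11 ± 0.61), Schip1 (5.54 ± 0.87), Lzts1 (5.11 ± 0.63), Pgam2 (4.57 ± 0.70) and Mon1a (4.55 ± 0.78). The most negative were Apoa2 (-6.70 ± 0.52), Rhox6 (-5.48 ± 0.47), Aass (-5.33 ± 0.47), Cnn1 (-5.19 ± 0.54) and Prl3d1 (-5.19 ± 1.22). Cnn1 was at 0 in all 8 VE libraries, and its 3 cultured Epi libraries averaged 35.8 ± 4.89 TPM while it was listed at 0 in in vivo Epi, so its value is that of the Epi difference. Rhox6 and Prl3d1 have near copies, and Prl3d1 had 22, 109 and 21.8 TPM in cultured VE, against 0 and 65.5 TPM in VE_Epi and 0.265, 25.9 and 77.3 TPM in VE_ExE. Schip1, the gene common to both comparisons on the positive side, had 94.7, 93.9 and 84.7 TPM in cultured VE, against 128 and 0 TPM in VE_Epi and 0 TPM in all 3 VE_ExE libraries.

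Against ExE, the largest positive values were Schip1 (5.09 ± 0.87), Tmem109 (4.88 ± 0.53), Abhd8 (4.84 ± 0.66), Msx1 (4.76 ± 1.00) and Cntf (4.72 ± 0.66). The most negative were Apoc2 (-8.88 ± 0.41), Apoa2 (-8.05 ± 0.52), Apom (-6.61 ± 0.48), Aqp8 (-6.38 ± 0.43) and Ttr (-6.25 ± 0.30). Apom, a lipoprotein component, averaged 97 ± 4.43 TPM in cultured ExE and 0.316 ± 0.447 TPM in in vivo ExE, and the water channel gene Aqp8 averaged 28.9 ± 3.72 TPM in cultured ExE and was listed at 0 in in vivo ExE. These VE genes were higher in cultured than in in vivo ExE libraries. The differences in VE and in ExE were -0.35 and 6.26 for Apom, -1.49 and 4.89 for Aqp8, and -2.97 and 5.92 for Apoc2. For Apoa2 they were -7.14 and 0.91, so its value is mostly that of the VE difference. Apom and Ttr were not called in VE, and their values are mostly those of the ExE difference. Why cultured ExE libraries held such transcripts was not tested.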

How the results depend on the processing

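Cultured against in vivo VE gave 4340 calls, 1879 in a fit of only the groups compared, 2228 with the 8 libraries alone and 1709 among genes averaging at least 20 TPM; the last 2 settings were added after seeing the data. In the same order, the 2825 calls against VE_Epi became 1877, 1012 and 1251, and the 5271 against VE_ExE became 2375, 3065 and 2046 (3311 with array weights). The 1926 calls between VE and Epi became 490 and 651, without a fit of 8 libraries (668 with array weights), and the 1668 between VE and ExE became 588 and 800. Fewer genes are tested above 20 TPM. The fit of only the groups compared has fewer libraries, and that of the 8 libraries alone has fewer libraries and a filter of its own (1 TPM in at least 3 of them), so for cultured against in vivo VE, where both use the same 8 libraries, 1879 and 2228 differ by that filter; other causes were not tested. Leaving out 1 library at a time gave 3840 to 4608, 2169 to 2515, 4922 to 5507, 1556 to 2274 and 1260 to 2110 calls.

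Under the pseudocount, filter, array weight, equal-weight and scaling alternatives the count of cultured against in vivo VE stayed within 1.5 times, but quantile normalization moved the share higher to 55.3%. Of 271 genes followed by name, 19 lost their call after quantile normalization, 25 after median-ratio scaling and 55 in the fit of only the groups compared. Of those called, Fabp5 (-0.13) and Sfrp1 (-0.10) changed sign with the regions averaged before the log, and Gata3 (-1.41) and Tfap2c (-1.33) with VE_ExE replicate 1 alone for its group; the cause was not tested.

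Same-numbered libraries of the VE groups did not deviate together (correlations of -0.024 to 0.020 over 7 pairs, none above 0.1). No pairing by number was seen there. The 2 VE_Epi libraries deviate as mirror images, which limits this check, and same-numbered Epi and ExE libraries were not compared. With the replicate block 4301, 2768, 5269, 1901 and 1628 genes were called. TPM gives no depth, so small differences in low genes could not be weighed.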
